A study of Mus musculus with 18 samples.

Results

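The 10 genes described here encode enzymes that turn cholesterol into conjugated bile acids, and they were followed in livers of male and female mice with either form of GKRP. They were chosen by symbol: Cyp7a1, Cyp8b1, Cyp27a1, Cyp7b1, Cyp39a1, Hsd3b7, Akr1d1, Amacr, Baat and Slc27a5. All 10 were found among the 52230 genes to which transcripts were joined, and all 10 were among the 10938 genes that passed the filter on low counts. RNA was sequenced from 18 livers, 1 library per mouse, and the genotypes were compared within each sex.

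PP mice carried the wild-type GKRP-446P and LL mice the GKRP-446L form, in which proline is replaced by leucine, on the B6N background of the GCKR-P446L-EMI-B6N line. GKRP is the product of Gckr and holds glucokinase in the hepatocyte nucleus. The change is in the germline, so every cell type of the mouse carries it. All mice ate standard chow. There were 4 male PP mice aged 9, 12, 14 and 14 weeks and 4 male LL mice aged 13, 13, 13 and 14 weeks. There were 5 female PP mice aged 9, 9, 11, 12 and 14 weeks and 5 female LL mice aged 11, 11, 13, 13 and 14 weeks. Numbers after a group name a mouse and do not pair mice across groups.

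Bile acids are made from cholesterol in hepatocytes along a classical and an acidic route. The classical route starts with 7α-hydroxylation by CYP7A1 in the endoplasmic reticulum. The acidic route starts with side-chain oxidation by CYP27A1 in mitochondria, followed by CYP7B1. CYP8B1 adds the 12α-hydroxyl group that makes cholic acid rather than chenodeoxycholic acid and, in mice, muricholic acids. The intermediates are then altered on the ring by HSD3B7 and AKR1D1 and shortened in peroxisomes with the help of the racemase AMACR. Slc27a5 encodes a ligase that activates bile acids, and BAAT conjugates them, mainly to taurine in mice. The pathway is held back by bile acids through the receptor FXR (Nr1h4) and SHP (Nr0b2), and through the gut hormone FGF15, which acts on hepatocytes by FGFR4 and its co-receptor β-Klotho (Klb).

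The promoter of Cyp8b1 is shown because Cyp8b1 had the largest log2 fold change by LL genotype of the 10 genes in females. RefSeq promoter windows of 250 bases before to 50 bases after the start site were available here for 4 of the 10 genes, Cyp8b1, Cyp27a1, Hsd3b7 and Akr1d1. They were searched on both strands for CAAAGTCCA, a word bound by HNF4A, and CAAGGNCA, a word bound by LRH-1 (Nr5a2). Only the Cyp8b1 window held either word, and it held both, overlapping, with their first bases at -67 and -60 from the start site. Of 32851 RefSeq promoter windows, 0.475% held the first word and 6.71% the second. The Cyp8b1 window (GRCm38.p6, chr9:121916256-121916555, minus strand, printed 5′ to 3′ along the gene) is given with the overlapping words in capitals.
Cyp8b1 promoter: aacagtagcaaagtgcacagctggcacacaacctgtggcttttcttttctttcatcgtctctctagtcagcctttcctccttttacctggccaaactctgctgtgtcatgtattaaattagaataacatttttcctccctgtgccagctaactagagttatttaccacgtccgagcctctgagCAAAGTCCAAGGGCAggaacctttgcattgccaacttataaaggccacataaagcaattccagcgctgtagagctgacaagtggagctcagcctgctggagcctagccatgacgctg
The match is a description of the letters and not of binding. Hnf4a and Nr5a2 themselves were not called by genotype in either sex, with log2 fold changes in females of -0.24 ± 0.14 (SE) and -0.18 ± 0.17.

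The libraries held between 3794671 and 6613905 estimated counts in total. Gckr, the edited gene, was not called by LL genotype, with log2 fold changes of -0.12 ± 0.15 (SE) in males and -0.05 ± 0.13 in females. The edit changes 1 amino acid, so the level of Gckr does not check the genotype labels. The hepatocyte markers Alb, Ttr, Apoa1 and Cps1 were high in all libraries, with a summed normalized count of at least 364381. Markers of 4 other liver cell types were low beside these, with summed counts of at most 137 for bile duct cells, 613 for Kupffer cells, 876 for stellate cells and 531 for endothelial cells. Mup genes, which encode urinary pheromone carriers, took 21.5% to 30.0% of the counts in male PP, 11.8% to 19.3% in male LL and 2.00% to 6.93% in female libraries of either genotype. Female LL libraries had shorter fragments than female PP libraries (mean of 292 ± 52.1 against 448 ± 108 bases, SD, n = 5 each, exact permutation test, two-sided p = 0.0159) and a higher mitochondrial share of counts (12.5% ± 1.34 against 10.2% ± 1.11, p = 0.0317 by the same exact test). In males the same exact test gave p = 0.286 for fragment length and p = 0.171 for the mitochondrial share. The part of these differences in the results below was not tested beyond a fit with fragment length as a term.

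Levels were compared between genes per length, as TPM summed over transcripts of at least 1000 bases. The limit was set after the data were seen, because shorter transcripts carried 59.8% of the TPM of Amacr and 52.5% of that of Hsd3b7, with 17% and 8.12% of their counts. Slc27a5 was the most abundant of the 10 in every group, at 170 ± 31.3 TPM in male PP, 212 ± 47.1 in male LL (SD, n = 4 each), 326 ± 31.5 for PP females and 302 ± 63.9 for LL females (SD, n = 5 per genotype). Cyp39a1, a 7α-hydroxylase of 24-hydroxycholesterol, was the least abundant in 3 groups, at 1.34 ± 0.45 TPM in male PP, 2.85 ± 0.67 in male LL and 6.21 ± 2.16 in female LL. In female PP it stood at 11.3 ± 4.08 TPM, and Cyp7b1 was lowest at 9.00 ± 5.82 TPM, a pair that did not differ beyond its spread. Cyp7a1, the rate-limiting enzyme of the classical route, ranked 8 or 9 in each group, with means from 13.0 ± 8.39 TPM in male PP to 20.2 ± 7.48 TPM in male LL. In female LL mice the genes in the second to the fourth place, Hsd3b7 (116 ± 20.3 TPM), Cyp27a1 (108 ± 12.5) and Cyp8b1 (103 ± 14.7), lay within 1 SD of each other, as did Baat (78.5 ± 12.3) and Akr1d1 (64.3 ± 16.9). In male PP mice Cyp7b1 ranked second (138 ± 25.2 TPM), followed by Cyp27a1, Cyp8b1 and Hsd3b7 at means between 67.5 and 74.6 TPM that were not separated by their spread.

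**Figure D1:**
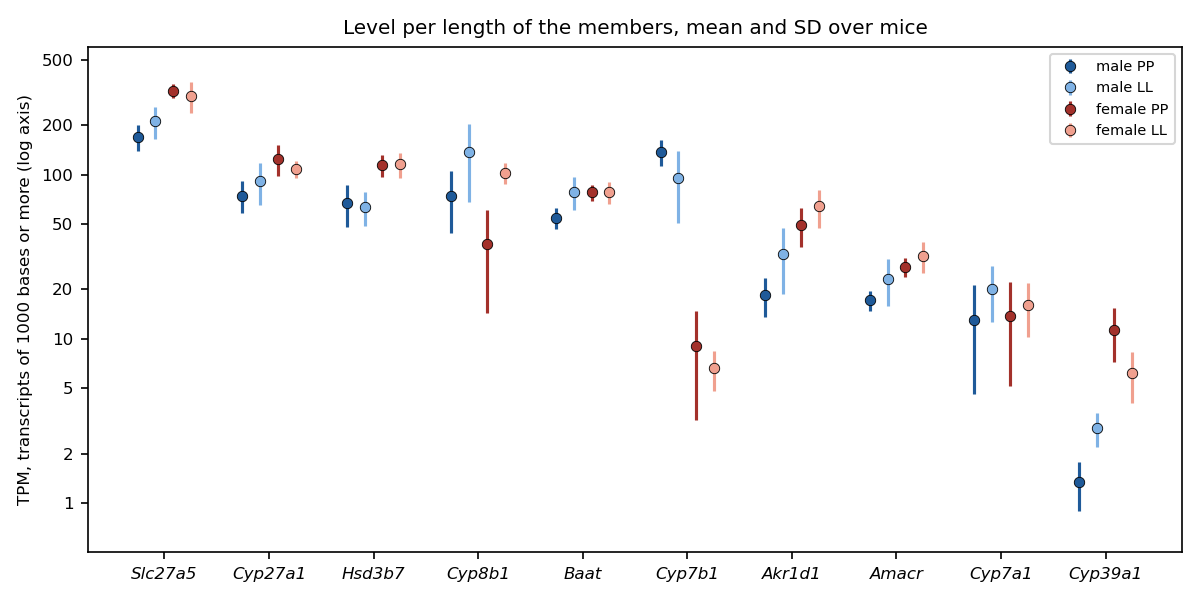
Level per length of the 10 genes (y axis, TPM over transcripts of at least 1000 bases, log axis) by gene (x axis) and group. Points are means and bars SDs over 4 male or 5 female mice. Slc27a5 lies highest and Cyp39a1 at or near the bottom, and Cyp7b1 falls from 138 TPM in male PP to 6.61 TPM in female LL mice.

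TPM is a share of all transcripts, and the Mup transcripts of male livers take up part of it. Their part in the shifts that follow was not tested. On the log2(TPM + 1) scale the median difference of all tested genes was 0.50 between female PP and male PP and 0.21 between male LL and male PP. Comparisons between groups were therefore made on counts scaled by DESeq2 size factors (normalized counts), for which these medians were -0.0016 and 7.9e-05. A gene was called a DEG at a Benjamini-Hochberg adjusted p below 0.05 if the fold change was also 1.3 or more, or 0.7 or less. In whole liver, fewer cells of a type and less RNA per cell cannot be told apart.

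The genotype contrast in males asked which enzymes changed by LL genotype. Hsd3b7 was the only DEG of the 10 and was lower in LL mice. At an unadjusted p below 0.05 there were 3 of the 10 (7.83% of all tested genes), and edgeR called 0. Among all tested genes, 31 of 10938 (0.283%) were DEGs in this contrast, 0.0731% in the lower direction. The groups did not overlap for 3 of the 10 genes, Hsd3b7, Cyp7b1 and Cyp39a1, against 4.07% of all tested genes. The median log2 fold change of the 10 was 0.01, beside 7.9e-05 for all tested genes.

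Hsd3b7 encodes the microsomal 3β-hydroxy-C27-steroid dehydrogenase that acts on the products of every 7α-hydroxylase. Its normalized counts were 1141, 1214, 1207 and 1507 in male PP and 772, 909, 1040 and 822 in male LL mice. Every LL mouse lay below every PP mouse. The log2 fold change was -0.52 ± 0.15 (SE, fold change 0.699, DESeq2 adjusted p = 0.0470), which is close to both limits of a DEG. The call was kept in 11 of 29 alternatives, whose adjusted p ranged from 0.0107 to 0.483, and the sign was kept in all 29. Of 11 alternatives other than leaving out a library it was kept with TMM factors and lost in the other 10. These were edgeR, limma, no low-count filter, no independent filtering, the transcript length offset, fragment length or age as a term, mice of 12 weeks and older, the replicate block and males alone, where the fold limit was missed. It was also lost without any single male library other than male LL mouse 3 (adjusted p from 0.0635 to 0.412) and without female PP mouse 5 (0.109). Hsd3b7 (GRCm39, chr7:127399597-127402989, plus strand) shares 89.3% of its 31-base words with other genes, chiefly with 9430064I24Rik on the opposite strand and Gm49388 on the same strand, both of which overlap its exons. Whether the counting used strand is not given in the sources used here, so reads of these genes may have been split. With the reads of all 3 genes counted as 1, a setting chosen after the data were seen, the log2 fold change was -0.46 (adjusted p = 0.119) and no longer a DEG.

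Cyp7b1 encodes the oxysterol 7α-hydroxylase, the second step of the acidic route. Its normalized counts were 3486, 3112, 2914 and 2111 in male PP and 704, 2097, 1440 and 1632 in male LL mice. The 2 groups did not overlap, although male PP mouse 4 and male LL mouse 2 lay close together. The log2 fold change of -0.98 ± 0.44 did not pass the threshold (DESeq2 adjusted p = 0.339), and it did so in 1 of 29 alternatives, the fit of males alone (adjusted p = 0.0225). In the same mice the Mup share of counts did not overlap between genotypes either (25.8% ± 3.77 in PP and 15.3% ± 3.26 in LL mice, SD, n = 4 in both groups). The exact permutation test gave p = 0.0286, which 4 against 4 mice cannot go below. Its part in the Cyp7b1 values was not tested.

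Cyp39a1 was low in males, and its values were 32.0, 35.7, 22.6 and 27.9 in PP and 45.4, 50.4, 46.4 and 44.3 in LL mice. All LL mice were above all PP mice, by a log2 fold change of 0.67 ± 0.30. DESeq2 gave no adjusted p because of the low counts, and none of the 15 alternatives that gave one called it (adjusted p from 0.225 to 0.902).

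The other 7 genes were not called in males. Cyp7a1 had 354, 465, 474 and 1022 normalized counts in PP and 863, 581, 542 and 610 in LL mice, with a log2 fold change of 0.17 ± 0.49 and a 95% interval from -0.79 to 1.12. Cyp8b1 had 941, 1221, 1339 and 1740 in PP and 2145, 2201, 1950 and 692 in LL mice. LL mice 1, 2 and 3 were above all PP mice and LL mouse 4 was below all of them, and the log2 fold change was 0.41 ± 0.56. Cyp27a1 was even across males, from 1245 to 1456 normalized counts, with a log2 fold change of -0.10 ± 0.14. Akr1d1 (0.33 ± 0.22), Amacr (-0.06 ± 0.13), Baat (0.09 ± 0.11) and Slc27a5 (-0.17 ± 0.11) had groups that overlapped. The 95% intervals of Cyp27a1 (-0.38 to 0.17), Amacr (-0.31 to 0.20), Baat (-0.13 to 0.30) and Slc27a5 (-0.39 to 0.06) lay inside the fold limits of a DEG.

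The same contrast was made in females. Cyp39a1 was the only DEG of the 10 and was lower in LL mice. At an unadjusted p below 0.05 there were 3 of the 10 (13.0% of all tested genes), and edgeR called 0. Among all tested genes, 72 of 10938 (0.658%) were DEGs, 0.293% in the lower direction. The groups did not overlap for 1 of the 10 genes, Cyp8b1, against 2.66% of all tested genes. The median log2 fold change of the 10 was 0.10, beside 0.01 for all tested genes.

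Cyp8b1 set LL apart from PP among females without passing the threshold. Its normalized counts were 503, 31.8, 432, 631 and 286 in PP and 1009, 989, 1328, 1056 and 1127 in LL mice. The LL mice were close together, with a coefficient of variation of 12.4%, while the PP mice varied by 61.0% and PP mouse 2 stood far below the others. The log2 fold change was 1.55 ± 0.50 (a 2.92-fold higher level), and the DESeq2 adjusted p was 0.0938. The adjusted p ranged from 0.0041 to 0.553 over 29 alternatives, and the sign was kept in all. It was below 0.05 in 2 of them, without female PP mouse 2 (log2 fold change 1.25, adjusted p = 0.0041) and without female PP mouse 4 (1.81, adjusted p = 0.0218). With fragment length as a term the log2 fold change was 1.52, with an adjusted p of 0.553. The difference between the sexes in this effect was 1.13 ± 0.75 (interaction, DESeq2 adjusted p = 0.657).

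Cyp7a1 was not called by genotype in females. Its counts were 291, 79.1, 394, 640 and 305 in female PP and 235, 660, 407, 307 and 427 in female LL mice. The groups overlapped and the log2 fold change was 0.25 ± 0.44 (95% interval from -0.60 to 1.11, DESeq2 adjusted p = 0.838). The ratio of Cyp8b1 to Cyp7a1 TPM was 0.97 to 4.30 in female PP mice and 3.50 to 10.1 in female LL mice, with medians of 2.38 and 7.86. In males it was 4.58 to 7.29 in PP and 2.98 to 8.88 in LL mice. These ratios are a description, with no test.

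**Figure D2:**
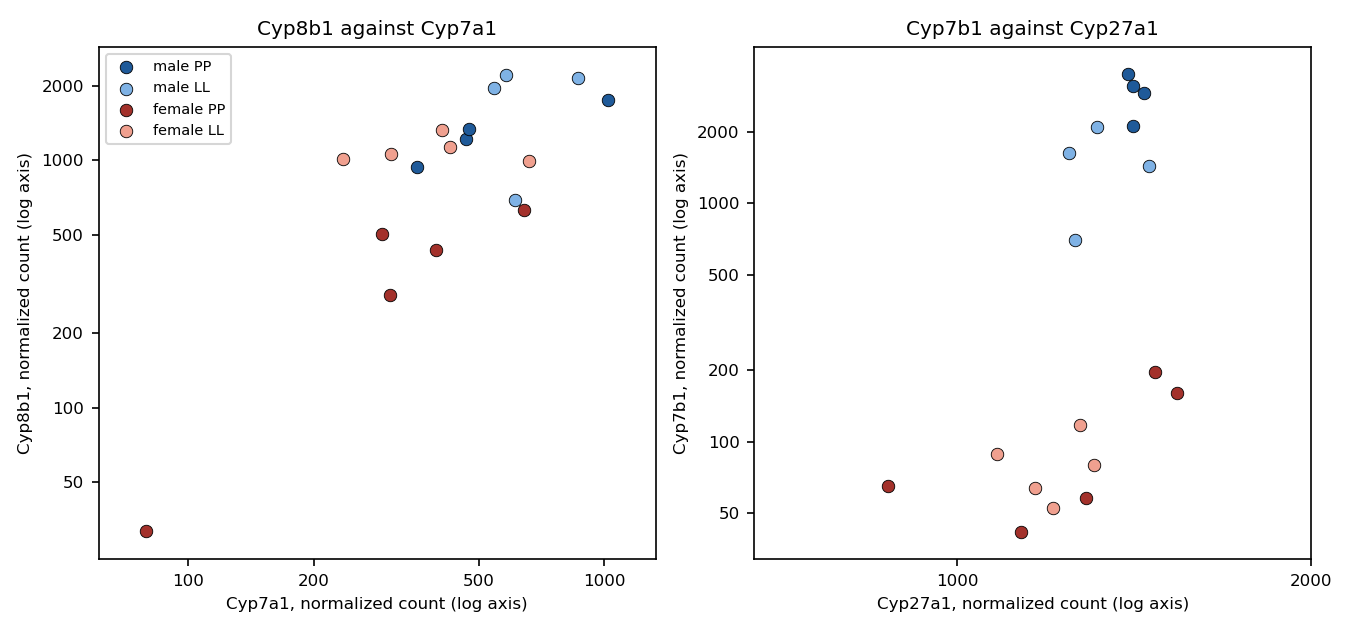
Normalized counts of Cyp8b1 against Cyp7a1 and of Cyp7b1 against Cyp27a1, both axes log, 1 point per mouse and a colour per group. At like Cyp7a1 counts the 5 female PP mice lie below the 5 female LL mice in Cyp8b1, and Cyp7b1 separates the 8 males, at 704 or more, from the 10 females, at 196 or less.

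Cyp39a1 (GRCm39, chr17:43978281-44062322, plus strand) had 111, 181, 107, 98.7 and 203 normalized counts in female PP and 57.4, 60.3, 95.9, 107 and 72.2 in female LL mice. PP mice 2 and 5 were highest, LL mice 1 and 2 lowest, and the groups overlapped. The log2 fold change was -0.84 ± 0.23 (fold change 0.559, DESeq2 adjusted p = 0.0391). The call was kept in 17 of the 27 alternatives that gave an adjusted p, which ranged from 0.0054 to 0.992, and the sign was kept in all 29. It was lost with edgeR (adjusted p = 0.179), with fragment length as a term (0.131), in mice of 12 weeks and older (0.992), with limma (0.446), the transcript length offset (0.282) or the replicate block (0.0921), and without any 1 of female PP mice 2 and 5 and female LL mice 1 and 2. Of the females, the fit of older mice held only PP mice 4 and 5 and LL mice 3, 4 and 5. The genotype effect on Cyp39a1 had opposite signs in the sexes, with an interaction of -1.51 ± 0.38. DESeq2 gave no adjusted p for it, and of 23 alternatives that did, 6 called it (adjusted p from 0.0210 to 0.704).

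Akr1d1, the 5β-reductase that gives bile acids their bent ring, had 508, 846, 642, 941 and 759 normalized counts in female PP and 831, 937, 1273, 1225 and 739 in female LL mice. LL mice 3 and 4 were above all PP mice, and the log2 fold change was 0.44 ± 0.20 (DESeq2 adjusted p = 0.268). Amacr had a log2 fold change of 0.22 ± 0.12 (adjusted p = 0.350) and was not called. Cyp27a1 (-0.06 ± 0.13), Cyp7b1 (-0.37 ± 0.40), Hsd3b7 (0.09 ± 0.13), Baat (0.10 ± 0.10) and Slc27a5 (-0.04 ± 0.10) were not called. The 95% intervals of Cyp27a1 (-0.31 to 0.18), Hsd3b7 (-0.16 to 0.35), Baat (-0.09 to 0.30) and Slc27a5 (-0.24 to 0.16) lay inside the fold limits of a DEG. For Hsd3b7 the sign depended on the length correction, since with a transcript length offset the log2 fold change was -0.73 (adjusted p = 0.490).

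**Figure D3:**
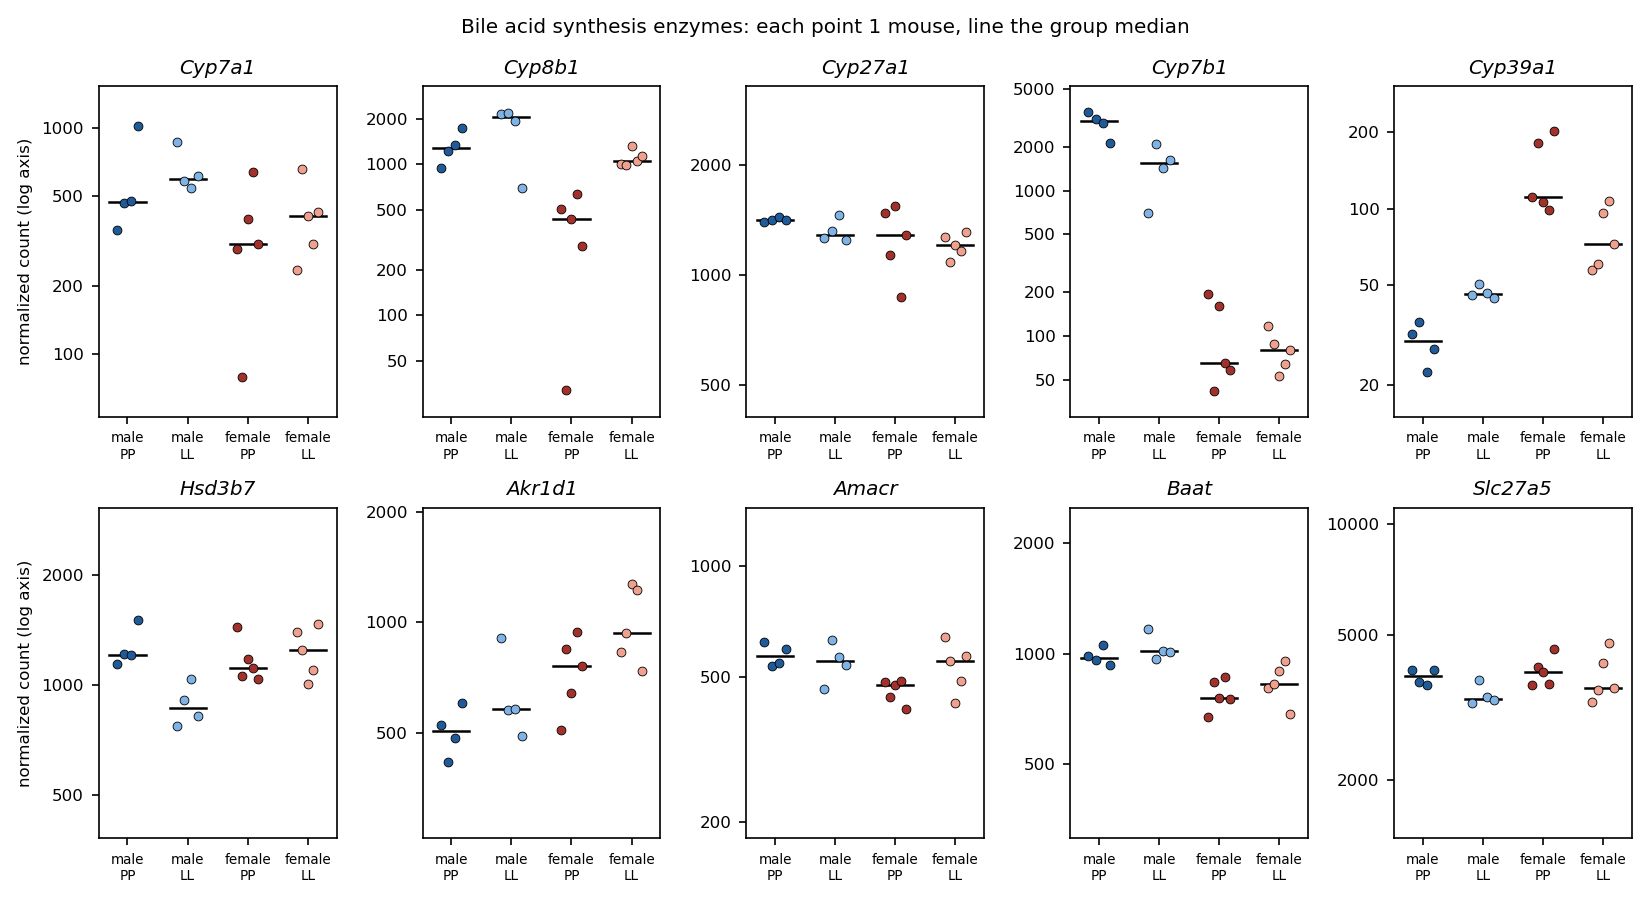
Normalized counts of the 10 genes, 1 panel per gene, 1 point per mouse, black lines at group medians (y axes log, of unequal range between panels). Female PP mice lie below female LL mice for Cyp8b1, males lie far above females for Cyp7b1 and below them for Cyp39a1, and male LL mice lie below male PP mice for Hsd3b7.

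Sex was compared within each genotype. In PP mice Cyp7b1 and Cyp8b1 were lower and Cyp39a1 higher in females, 3 DEGs of 10, where 6.45% of all tested genes were DEGs (3.68% higher and 2.77% lower in females). In LL mice Cyp7b1 was lower and Hsd3b7 and Akr1d1 higher in females, again 3 of 10, with 6.12% among all tested genes (3.33% higher and 2.79% lower). With edgeR 3 of the 10 were called in PP mice and 1, Cyp7b1, in LL mice. The groups did not overlap for 5 of 10 genes in PP (9.74% of all tested genes) and 3 of 10 in LL mice (8.16%). The median log2 difference (female minus male) of the 10 was -0.24 in PP and -0.09 in LL mice, beside -0.0016 and 0.01 for all tested genes. The sex contrasts share groups with the genotype contrasts, so their values are not independent of these.

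Cyp7b1 was the most sex-biased of the 10. Its female counts were 196, 41.8, 160, 65.2 and 58.3 in PP and 117, 88.9, 52.9, 64.2 and 79.9 in LL mice, all far below every male. The log2 difference was -4.80 ± 0.42 in PP (27.9-fold higher in males, DESeq2 adjusted p = 5.7e-27) and -4.19 ± 0.42 in LL mice (18.2-fold, adjusted p = 4.9e-20). Both were called in all 28 alternatives. Cyp27a1, the step before it, was not called by sex (-0.17 ± 0.13 in PP, -0.13 ± 0.13 in LL). The ratio of Cyp7b1 to Cyp27a1 TPM was 1.38 to 2.42 in male PP and 0.51 to 1.56 in male LL mice, against 0.03 to 0.12 in female PP and 0.04 to 0.09 in female LL mice.

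Cyp39a1 ran the other way. Among PP mice it was 4.78-fold higher in females (log2 difference 2.26 ± 0.27, DESeq2 adjusted p = 1.4e-14), and this was called in all 28 alternatives. In LL mice the difference was 0.75 ± 0.26 (adjusted p = 0.0552), with no overlap between the sexes, and it was called in 6 of 28 alternatives. Cyp8b1 of PP mice was lower in females, with no overlap (-1.80 ± 0.53, 3.48-fold, adjusted p = 0.0153). The call was kept in 24 of 28 alternatives and lost without female PP mouse 5 (adjusted p = 0.0504), male PP mouse 3 (0.0548) or male PP mouse 4 (0.0793) and with limma on log2(TPM + 1) (0.0876). In LL mice Cyp8b1 differed by -0.67 ± 0.53 (adjusted p = 0.523), with a 95% interval from -1.71 to 0.38.

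Of the ring and side-chain enzymes, Akr1d1 was higher in female LL than in male LL mice (0.65 ± 0.21, 1.57-fold, adjusted p = 0.0359), a call kept in 19 of 28 alternatives. In PP mice the difference was 0.54 ± 0.21 (adjusted p = 0.110). Hsd3b7 was higher in female LL than in male LL mice (0.49 ± 0.14, adjusted p = 0.0126), also kept in 19 of 28 alternatives, and it remained a DEG with the overlapping genes merged (0.45, adjusted p = 0.0307). In PP mice it differed by -0.12 ± 0.14. The genotype by sex interaction of Hsd3b7 was 0.61 ± 0.20 (adjusted p = 0.115). Of the 10 genes 0 had an interaction called by DESeq2 or by edgeR, and 2, Hsd3b7 and Cyp39a1, had an unadjusted p below 0.05. Among all tested genes 13 of 10938 (0.119%) were called, and 5.67% had an unadjusted p below 0.05.

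Baat, which joins bile acids to taurine or glycine, was lower in females at both genotypes with no overlap, by a log2 difference of -0.34 ± 0.11 in PP (fold change 0.790, adjusted p = 0.0245) and -0.32 ± 0.11 in LL mice (0.800, adjusted p = 0.0395). These differences were too small to meet the fold limit. On the log2(TPM + 1) scale their signs were positive, at 0.52 and 0.01, where the medians of all tested genes were 0.50 and 0.20. Amacr did not overlap in PP mice (-0.32 ± 0.12, adjusted p = 0.0977). Cyp7a1 was lower in value in females at both genotypes (-0.76 ± 0.46 in PP, -0.67 ± 0.46 in LL) but was not called, and Slc27a5 differed by 0.05 ± 0.11 in PP and 0.18 ± 0.11 in LL mice.

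**Figure D4:**
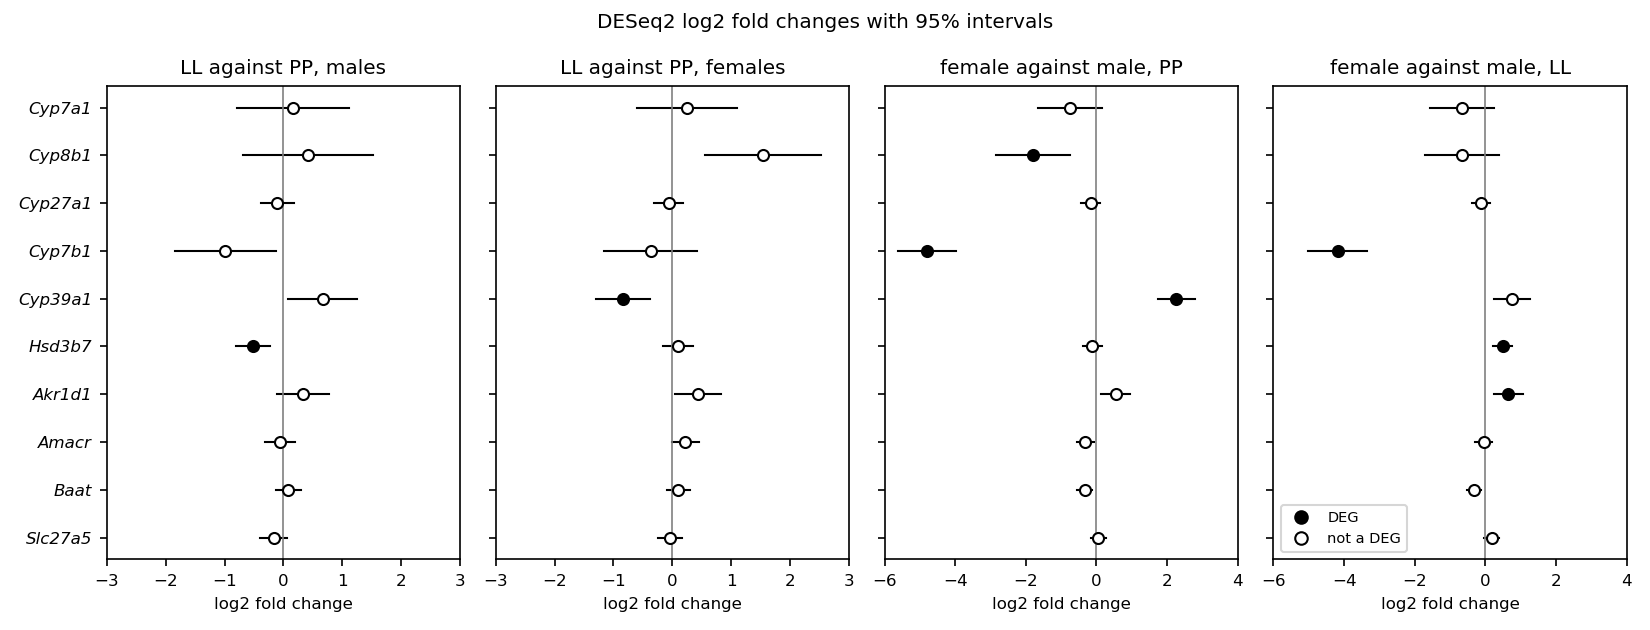
DESeq2 log2 fold changes (x axes) of the 10 genes (y axis) in 4 contrasts, with 95% intervals as lines and DEGs as filled points. The genotype panels run from -3 to 3 and the sex panels over a wider range. The widest departures from 0 are those of Cyp7b1 by sex, at -4.80 in PP and -4.19 in LL mice, and the genotype panels hold 1 filled point each.

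Markers of other liver cell types also moved with sex in PP mice. Of 4 tested stellate cell markers 3 were DEGs, all higher in females, Reln (1.24 ± 0.28), Lrat (1.04 ± 0.35) and Dcn (0.93 ± 0.24). So were 2 of 5 endothelial cell markers, Kdr (1.17 ± 0.30) and Clec4g (1.17 ± 0.28). Among all tested genes 6.45% were DEGs in this contrast, 3.68% higher in females. Of these stellate and endothelial cell markers, edgeR called 2 of each type. Of 5 Kupffer cell markers 0 were DEGs, 0 were called by edgeR and 1 had an unadjusted p below 0.05. The share of all genes at that p was not computed for the sex contrasts. Summed stellate cell counts were 262 to 549 in male PP and 641 to 876 in female PP mice, and summed endothelial cell counts 130 to 245 and 257 to 531. Among PP mice the hepatocyte marker Alb was higher in females (0.94 ± 0.10), and its genotype effect differed between the sexes (interaction -0.61 ± 0.14, DESeq2 adjusted p = 0.0180). By genotype 0 of 19 tested markers were DEGs in either sex and 0 were called by edgeR. At an unadjusted p below 0.05 there were 6 of 19 in males and 8 of 19 in females, where all tested genes gave 7.83% and 13.0%. In females 2 of 19 markers had a positive log2 fold change, with a median of -0.42 beside 0.01 for all tested genes. The positive ones were 0 of 5 for endothelial cells (4 of 5 at an unadjusted p below 0.05), 0 of 5 for Kupffer cells and 0 of 4 for stellate cells. In males 12 of 19 were positive, with a median of 0.17. The positive ones were 4 of 4 for hepatocytes (median 0.19), 4 of 4 for stellate cells (0.58) and 4 of 5 for endothelial cells (0.36). For Kupffer cells 0 of 5 were positive (median -0.66), and for bile duct cells 0 of 1. The interactions of the markers were positive in 6 of 19, with a median of -0.57 beside 0.01 for all tested genes. Of these 8 of 19 had an unadjusted p below 0.05 (5.67% of all tested genes), and edgeR called 0. The summed counts overlapped between genotypes for all 5 cell types in females, and in males for all but bile duct cells (74.7 to 118 in PP, 54.4 to 73.1 in LL). The part of these cells in the values of the enzymes was not tested.

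Genes that mark the ends of the liver lobule and clock genes were read in the same way. Cyp7a1 lies mainly in the pericentral zone, and its level follows the clock over the day. Of 8 pericentral genes 0 were DEGs by genotype in either sex, 0 were called by edgeR, and 3 in males and 2 in females had an unadjusted p below 0.05 (7.83% and 13.0% of all tested genes). Their median log2 fold change was -0.33 in males, with 1 of 8 positive, and 0.20 in females, with 6 of 8 positive. Their interactions were positive in 8 of 8, with a median of 0.52 beside 0.01 for all tested genes, and 3 had an unadjusted p below 0.05 (5.67% of all tested genes). Of 8 periportal genes 0 were DEGs, 0 were called by edgeR, and 3 in males and 1 in females had an unadjusted p below 0.05, with medians of 0.19 and -0.13 and an interaction median of -0.35. Of 11 tested clock genes 0 were DEGs by DESeq2 or edgeR, and 0 in males and 2 in females had an unadjusted p below 0.05, with medians of -0.07 and 0.08. The part of lobule position in the values of the enzymes was not tested. By sex, 0 of 8 pericentral genes were DEGs in PP mice (6.45% of all tested genes), with a median of -0.25 and 2 of 8 positive. Lhpp (0.92 ± 0.20), Oat (0.61 ± 0.21) and Rgn (0.58 ± 0.13) were higher in female LL than in male LL mice. These were 3 of 8, beside 3.33% of all tested genes, and edgeR called 2. Of the periportal list Ctsc was higher in females in PP (1.01 ± 0.19) and LL mice (1.01 ± 0.19), and Cyp2f2 was lower in female LL than in male LL mice (-0.71 ± 0.19). This was 1 of 8 higher in PP mice, and 1 of 8 higher and 1 lower in LL mice. Among all tested genes 3.68% were higher in PP, and 3.33% higher and 2.79% lower in LL mice. The hours at which the mice were killed are not given in the sources used here.

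Enzymes of the pathway beyond the 10 were read from a list of 12 genes, of which 10 were tested. By genotype 0 were DEGs in either sex and 0 were called by edgeR. At an unadjusted p below 0.05 there were 0 in males (7.83% of all tested genes) and 1 in females (13.0%). Acot8, a peroxisomal thioesterase, was that gene (log2 fold change 0.61 ± 0.26, DESeq2 adjusted p = 0.233). The median log2 fold change of the list was -0.04 in males and -0.05 in females. In PP mice 1 of the 10 was higher and 3 lower in females, beside 3.68% and 2.77% of all tested genes, and edgeR called 4. Acnat2, an acyltransferase of peroxisomes, was higher in females by a log2 difference of 2.47 ± 0.29. Scp2, which encodes the last thiolase of side-chain shortening, was lower in females by -0.87 ± 0.12 and Akr1c14 by -0.84 ± 0.21. In LL mice 2 of the 10 were higher and 2 lower in females, beside 3.33% and 2.79% of all tested genes, and edgeR called 2. The DEGs included Acnat2 (2.21 ± 0.29), Scp2 (-0.97 ± 0.12) and Acot8 (0.93 ± 0.29).

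Regulators were read from a list of 16 genes, all tested. In males 0 were DEGs by genotype, 0 were called by edgeR and 1 had an unadjusted p below 0.05, and the median log2 fold change was -0.14. In females 1 of 16 was a DEG, in the lower direction, beside 0.658% of all tested genes (0.293% lower). For females edgeR called 0 of the list, 5 had an unadjusted p below 0.05, and the median was -0.03. The all-gene shares at that p were 7.83% in males and 13.0% in females. Klb had 71.1, 78.2, 74.7, 55.3 and 93.7 normalized counts in female PP and 40.1, 46.4, 52.9, 24.7 and 48.1 in female LL mice. Every LL mouse lay below every PP mouse, where the groups did not overlap for 2.66% of all tested genes. The log2 fold change of Klb was -0.80 ± 0.23 (DESeq2 adjusted p = 0.0456), a call kept in 12 of 29 alternatives. Its partner receptor Fgfr4 was not called in females (0.03 ± 0.16), nor were the FXR gene Nr1h4 (0.07 ± 0.12) or the SHP gene Nr0b2 (-0.23 ± 0.34). By sex, Klb was higher in females in PP mice (0.80 ± 0.24, adjusted p = 0.0209), and Nr1i3, which encodes the xenobiotic receptor CAR, in LL mice (0.93 ± 0.23, adjusted p = 0.0029). Each was 1 of 16, beside DEG shares of 6.45% in PP and 6.12% in LL mice among all tested genes. With edgeR 0 of the 16 were called in PP and 1 in LL mice. Of 13 bile acid and sterol transporter genes 10 were tested, and 0 were DEGs in any of the 4 contrasts with DESeq2 or with edgeR. At an unadjusted p below 0.05 there were 0 by genotype in males (7.83% of all tested genes) and 2 by genotype in females (13.0%). There were 2 in each sex contrast, for which the share of all genes at that p was not computed. Their median log2 fold change by genotype was -0.08 in males and -0.27 in females.

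Mice of 1 group also varied together. After removal of the group means, 45 pairs of the 10 genes were compared over the 18 libraries, and 7 had a permutation p (100000 permutations within groups, two-sided) below 0.05 after Benjamini-Hochberg adjustment of Pearson's r. The pairs share library preparation and depth, and the share of pairs that pass among other genes was not computed. Cyp39a1 and Slc27a5 gave r = 0.82 (p = 0.0002, adjusted 0.0103) and Spearman's rho = 0.82 (permutation p = 0.0012, adjusted 0.0269), and r = 0.72 without the 2 libraries farthest from the median. Within males r was 0.40 and within females 0.88. Akr1d1 and Baat gave r = 0.81 (p = 0.0007, adjusted 0.0126) and rho = 0.76 (permutation p = 0.0022, adjusted 0.0269), and 0.73 without the 2 farthest. Both of these genes also followed the mitochondrial share of counts, with r of 0.60 and 0.61. Cyp7b1 and Akr1d1 went opposite ways, with r = -0.80 (p = 0.0008, adjusted 0.0126) and rho = -0.76 (permutation p = 0.0024, adjusted 0.0269), and -0.76 without the 2 farthest. Hsd3b7 and Baat (r = -0.75), Hsd3b7 and Amacr (0.68) and Cyp7b1 and Amacr (0.64) also passed. On the log2(TPM + 1) scale r for these pairs was -0.33, 0.11 and -0.33. By rank Hsd3b7 and Amacr did not pass (rho = 0.68, permutation p = 0.0099, adjusted 0.0742). With the mitochondrial share of counts r was -0.47 for Hsd3b7, -0.38 for Amacr and -0.37 for Cyp7b1.

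Cyp7a1 and Cyp8b1, which act on the same route, gave r = 0.77 (permutation p = 0.0058, adjusted 0.0432) and rho = 0.59 (permutation p = 0.0178, adjusted 0.100). Without female PP mice 2 and 4, the 2 libraries farthest from the median of Cyp7a1, r was 0.35, so the relation rests on those libraries. Female PP mouse 2 had the lowest count of all 18 mice for Cyp7a1, Cyp8b1 and Cyp7b1. On the log2(TPM + 1) scale 5 pairs passed in place of 7.

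By the same centred counts, the genes most alike to Cyp8b1 over the 18 libraries were Susd4 (r = 0.85), Aqp9 (0.83) and Ap2a1 (0.83). For Cyp7a1 they were Zc3h7b (0.84), Itih5 (0.83) and Mzt2 (0.83), and for Cyp39a1 Mtmr12 (0.88), Cbx5 (0.83) and Slc27a5 (0.82). They are the highest of 10937 genes ranked for each and are given as a description.

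Transcripts within a gene were compared where a gene had more than 1 in use. A single transcript held over 99% of the counts of Cyp7a1, Cyp8b1, Cyp7b1, Akr1d1, Baat and Slc27a5. Cyp39a1 was split between Cyp39a1-203 and Cyp39a1-204, and the former held a mean of 45.8% of its counts. In females its share was 47.6% ± 11.3 for PP and 55.0% ± 18.5 for LL (SD, n = 5 per genotype, p = 0.405 by exact permutation). Hsd3b7-201 held 69.2% ± 7.51 of the Hsd3b7 counts of PP females and 55.2% ± 16.6 of those of LL females (SD, n = 5 per genotype, p = 0.143 by exact permutation), and 68.7% ± 7.43 and 55.0% ± 32.0 in males (SD, n = 4 per genotype, p = 0.657 by exact permutation). Cyp27a1-201 held 95.5% ± 1.95 for PP females and 92.3% ± 2.37 for LL females (SD, n = 5 per genotype, p = 0.0635 by exact permutation). None of these differences passed 0.05, and the smallest p that 5 against 5 mice allow is 0.0079.

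**Figure D5:**
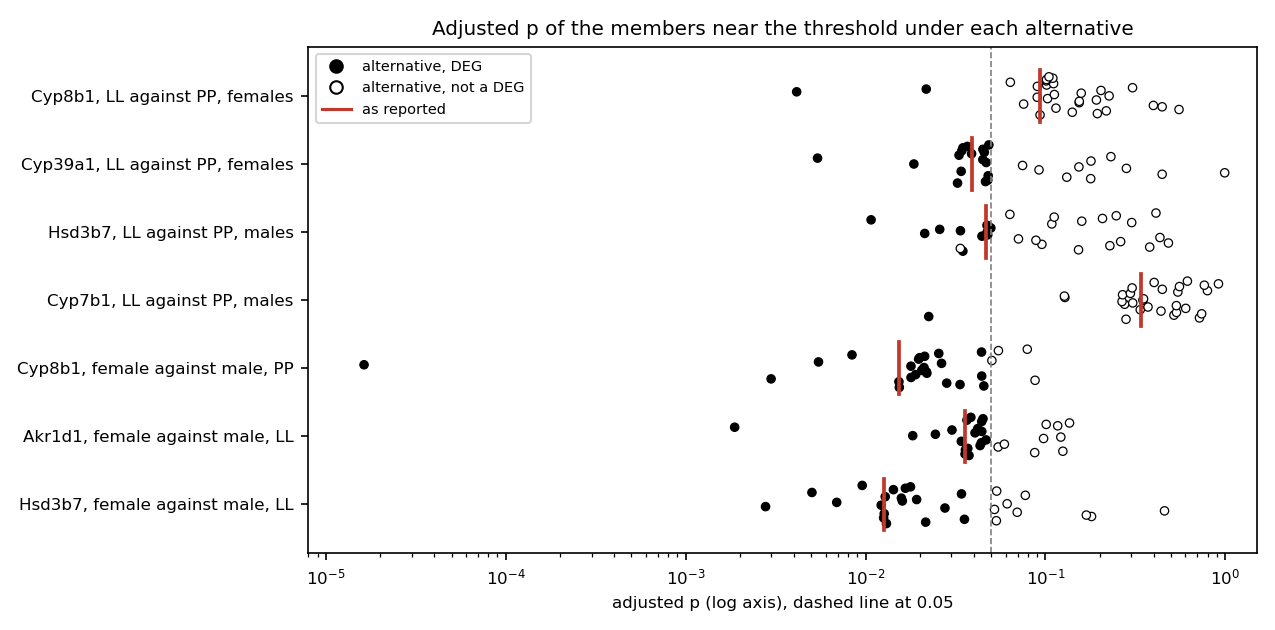
Adjusted p (x axis, log, dashed line at 0.05) of 7 results (y axis), with 1 point for each alternative setting that gave a value, filled where the gene was a DEG, and a red bar for the value as reported. All 7 results have points on both sides of 0.05, and Cyp7b1 in males has 1 of 29 below it.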

How the data were processed

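The members and gene lists were chosen with earlier results of these data known. Per the labels' processing notes and the study's methods, the authors checked reads with FastQC, did not trim them, and assigned them with Salmon 1.4.0 to GENCODE mouse transcripts of GRCm39. The deposited tables hold an expected count (estimated count) and a TPM value per transcript, the latter scaled by the authors to a fixed total per library. Transcripts were joined by identifier to genes of the later GENCODE M39, which held 137570 of 139225 transcripts and at the lowest 99.8% of a library's counts. Estimated counts were summed per gene and rounded. A gene was tested if 4 or more libraries held 10 or more of its counts. Total estimated counts of 3794671 to 6613905 per library leave low genes such as Cyp39a1 with wide counting errors.

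DESeq2 1.42.0 (R 4.3.3) and the limits of a DEG follow the study's methods. The use of 1 fit of 18 libraries in 4 groups by sex and genotype, with the Wald test, was chosen here. The contrasts were LL against PP within sex, female against male within genotype, and the interaction, called at an adjusted p below 0.05 with no fold limit. Adjusted p-values that independent filtering left empty stayed empty. Other values were compared with exact permutation tests. The fit was tested on simulated counts. Alternatives were edgeR 4.0.16, TMM factors, no low-count filter, no independent filtering, a transcript length offset, fragment length or age as a term, mice of 12 weeks and older, each sex alone, limma 3.58.1 on log2(TPM + 1), a replicate block and each library left out. Fragment length was taken as transcript length less effective length over transcripts of at least 3000 bases. Ages were taken from the labels of single mice (9 to 14 weeks), although the series text states 14 weeks throughout.

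Named genes were the 10 members, listed genes that were DEGs by genotype or called in the interaction, up to 3 DEGs of each list with the largest fold by sex, the 3 genes most correlated with Cyp7a1, Cyp8b1 and Cyp39a1, and Gckr. The lists held other pathway enzymes, regulators, transporters, clock genes, zonation genes and cell type markers. Of the hepatocyte markers Tf matched no gene symbol and was left out. Coordinates are those of GENCODE M39, and promoter sequences those of RefSeq. Mice are taken as separate animals, 1 library each.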

Additional observations from a re-analysis of the deposited data

Results flagged for a closer look

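Of 40 groups of normalized counts, 10 genes in 4 groups, 1 held a mouse far from the others of its group. Cyp8b1 in male LL mouse 4 was at 692, below the other male LL mice at 1950 to 2201, with a gap to its nearest neighbour of 0.833 of the range of the group. Chance gives such a flag in about 1 of 20 groups. Without this mouse the log2 fold change of Cyp8b1 by LL genotype in males was 0.68, and it was not a DEG (DESeq2 adjusted p = 0.887).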

How the results depend on the processing

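Across the alternatives, 1300 values of the 10 genes kept their sign and their side of the threshold, 51 lost a call, 19 gained one, 53 changed sign and 2 moved with no adjusted p. The last are Cyp39a1 in females without female LL mouse 3 (-0.93) or 5 (-0.81). The cause of these changes was not tested. On limma's log2(TPM + 1) scale, whose median over all genes was shifted, the sign changed by genotype for Cyp27a1 (0.46), Amacr (0.38) and Slc27a5 (0.11) in males and Hsd3b7 (-0.70) and Amacr (-0.082) in females. It changed by sex for Cyp27a1 (0.43), Hsd3b7 (0.997), Amacr (0.16) and Baat (0.52) in PP and Baat (0.0081) in LL mice. In the interaction it changed for Cyp7a1 (-0.33), Cyp27a1 (-0.51), Hsd3b7 (-0.18), Akr1d1 (-0.35), Amacr (-0.46), Baat (-0.51) and Slc27a5 (-0.23). With a transcript length offset it changed for Cyp27a1 in males (0.14) and females (0.047), Hsd3b7 in females (-0.73), Hsd3b7 (0.40) and Slc27a5 (-0.077) by sex in PP mice, and Cyp27a1 (-0.090) and Baat (-0.041) in the interaction. With fragment length as a term it changed for Cyp27a1 in females (0.034). In mice of 12 weeks and older it changed in males for Cyp7a1 (-0.014), in females for Cyp7a1 (-0.31), Cyp27a1 (0.18), Cyp7b1 (0.087) and Slc27a5 (0.022), and in the interaction for Cyp7a1 (-0.30) and Baat (-0.015).

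With each library left out in turn, the range crossed 0 by genotype in males for Cyp7a1 (-0.0093 to 0.59) and Amacr (-0.13 to 0.012) and in females for Cyp7a1 (-0.0013 to 0.61), Cyp27a1 (-0.17 to 0.018) and Slc27a5 (-0.13 to 0.012). It did so by sex for Slc27a5 in PP (-0.0033 to 0.080) and Amacr in LL mice (-0.12 to 0.034), and in the interaction for Cyp7a1 (-0.34 to 0.44), Cyp27a1 (-0.070 to 0.12), Akr1d1 (-0.0014 to 0.32) and Baat (-0.034 to 0.081). None of these was called. Transcript shares in males, LL minus PP in percentage points, crossed 0 likewise for Cyp27a1-201 (-5.95 to 2.87), Cyp39a1-203 (-16.7 to 10.5), Hsd3b7-201 (-21.2 to 1.90) and Amacr-201 (-2.36 to 3.09). As a share of TPM, Hsd3b7-201 differed by 3.32 in males and 4.31 in females, opposite in sign to the share of counts.

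The 31 DEGs by genotype in males became 3 with edgeR, 53 with the length offset, 19 in mice of 12 weeks and older and 0 with limma. The 72 in females became 3 with edgeR, 28 with the offset, 14 with fragment length as a term, 44 with age as a term, 12 in the older mice and 0 with limma. The fit of older mice left out male PP mouse 1, female PP mice 1, 2 and 3 and female LL mice 1 and 2. Its groups were therefore smaller, and the part of age in its lost calls cannot be told apart from this. By sex, the 705 in PP mice became 301 in the older mice and 4307 with limma, and the 669 in LL mice 432 with fragment length and 405 in the older mice. The 13 interaction calls became 0 with edgeR, 8 without independent filtering, 5 in the older mice and 0 with limma. With each library left out in turn, the counts ranged from 20 to 60 in males, 28 to 270 in females, 548 to 740 by sex in PP, 463 to 807 in LL and 3 to 27 for the interaction. The fragment length difference ranged from -170 to -43.2 bases in males and -178 to -110 in females. The male count was 20 without male PP mouse 2 and 60 without male LL mouse 4. The female count was 270 without female PP mouse 4, 128 without female LL mouse 2, and 28 to 42 without female PP mouse 1, 2, 3 or 5 or female LL mouse 1 or 4. The interaction count was 27 without female LL mouse 3 and 3 to 7 without male PP mouse 2, male LL mouse 1, female PP mouse 2 or 3 or female LL mouse 1 or 4.

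The replicate numbers run in order of age within each group and do not pair mice across groups. Correlations of deviations between same-numbered mice were -0.17 to 0.05 in males and -0.10 to 0.16 in females. A block by replicate number is therefore in part a block by age rank. With the replicate block the counts were 34 in males, 54 in females, 572 and 520 by sex in PP and LL mice and 18 for the interaction. Under the block Hsd3b7 in males (adjusted p = 0.0708), Cyp39a1 in females (0.0921), and Akr1d1 (0.0591) and Hsd3b7 (0.0697) by sex in LL mice were not called. Groups of 4 or 5 mice and the low counts of Cyp39a1 limit the precision of its values.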
